A study of Mus musculus with 24 samples.

Results

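Fos, Fosb and Fosl2 of the Fos subfamily and Jun, Junb and Jund of the Jun subfamily were taken by symbol from the deposited count files. They are 6 of the 49568 gene symbols in those files, and all 6 were among the 18482 genes with enough counts to be tested. The study sequenced polyA RNA of the hippocampus from mice homozygous either for wild-type (WT) or for kinase-dead (KD) MSK1, a nuclear kinase that phosphorylates CREB and histone H3. The kinase-dead mice carry an inactivating point mutation in every tissue, and both lines are on a C57-Bl/6J background by the study's methods and were bred as separate lines, so that compared animals were not littermates. All mice were male by the study's methods and 12 weeks old by the labels. WT SH and KD SH mice lived in standard housing (SH), with 6 libraries each. WT EE and KD EE mice were reared from before birth in an enriched environment (EE), larger cages with toys, tunnels and a running wheel, with 5 libraries each. A further library of each enriched group did not pass the study's quality control and was left out, namely 33B of WT EE and 34B of KD EE. Counts on genes in the 22 libraries were between 8911999 and 56752074, with a median of 30265877.5. The labels give each library as a separate sample of its group without naming the animals, so p-values measure the spread between these libraries. Libraries are named by their codes, and 5 of the 10 enriched libraries (31B, 33A and 35A of WT EE, 32A and 36A of KD EE) carry a letter in the code, whereas no standard-housed library does. The meaning of the letter is not given in the sources used here.

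Proteins of the Fos and Jun families form the dimeric transcription factor AP-1. Jun proteins can pair with each other or with a Fos protein, whereas Fos proteins need a Jun partner to bind DNA. Fos, Fosb and Junb are immediate early genes, transcribed within minutes when synaptic activity signals through calcium and protein kinases to CREB and SRF at their promoters, and MSK1 is among the kinases that phosphorylate CREB. Fos RNA is widely used in the hippocampus as a mark of recently active neurons.

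Rps6ka5, the gene of MSK1, was read in every library, from 22.3 to 28.3 CPM (counts scaled by TMM to the library's total counts on genes) in WT SH, from 19.3 to 24.4 CPM in WT EE, from 22.03 to 28.2 CPM in KD SH and from 20.7 to 29.0 CPM in KD EE. These ranges overlapped, and since the mutation removes kinase activity and not the transcript, the level of this RNA does not check the genotype labels.

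Per kilobase of exon, using the exon lengths of GENCODE M21 on GRCm38, Jun was the most abundant member, at a mean of 31.3 RPKM over the 22 libraries (up to 37.4 RPKM). Junb followed at 23.1 RPKM (15.9 to 31.4 RPKM), Jund at 12.2 RPKM (7.94 to 15.1 RPKM) and Fos at 9.85 RPKM (5.36 to 16.5 RPKM). Fosl2 stood at 6.24 RPKM (4.38 to 10.2 RPKM) and Fosb was lowest, at 2.10 RPKM (1.20 to 4.00 RPKM). The ranges of Jun and Junb overlapped, as did those of Jund, Fos and Fosl2, whereas every library of Junb lay above every library of Jund and every library of Fosl2 above every library of Fosb. The place of Jund in this order is uncertain. The antisense gene Gm11175 covers 877 of the 1668 exon bases of Jund, and the counting did not use strand, so that a read over both genes is assigned to neither. Gm11175 itself held 0 counts in all 22 libraries, and over the 791 exon bases that Jund shares with no gene its mean would be 25.7 RPKM (16.8 to 31.8 RPKM). Antisense Junos shares 232 of the 3189 exon bases of Jun, and Prdx2 on the opposite strand shares 173 of the 2301 exon bases of Junb. No annotated gene overlaps Fos, Fosb or Fosl2.

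Fos spans chr12:85473890-85477273 on the forward strand, Fosb chr7:19302696-19310051 on the reverse strand and Fosl2 chr5:32135801-32157842 on the forward strand. Jun spans chr4:95049034-95052222 and Junb chr8:84974484-84978718, both on the reverse strand, and Jund chr8:70698949-70700616 on the forward strand. RefSeq sequences upstream of the start (GRCm38.p6) were found for all 6 members, and the 250 bases before the start were searched on both strands. The letters TGACG, the core that CREB and its relatives bind, were found in the promoters of Fos, Fosb and Junb, with 2 matches in Fos and 1 each in Fosb and Junb, and in 17.8% of all 32851 promoters of that length. The longer palindrome TGACGTCA, which contains TGACG, was in none of the 6 and in 1.55% of all promoters. The classical AP-1 letters TGACTCA were also in none of the 6 and in 4.46% of all, whereas the variant TGACATCA was in Jun alone of the 6 and in 2.93% of all. CArG boxes, bound by SRF, were in none of these windows and in 1.47% of all. Bases farther upstream were not searched, so any boxes there would be missed. A match of letters is not evidence of binding. The promoters of Fos (chr12:85473640-85473889, forward), Fosb (chr7:19310052-19310295, reverse) and Junb (chr8:84978749-84978998, reverse) are shown because they hold the TGACG letters, which Fosl2, correlated with Fosb and Junb, lacks, and that of Jun (chr4:95052223-95052472, reverse) because none of its pairs passed the adjustment. The Fosb sequence shown has 244 bases, since the last bases before the RefSeq start lie within the GENCODE gene and were left off. TGACG and, in Jun, TGACATCA are in capitals.
Fos: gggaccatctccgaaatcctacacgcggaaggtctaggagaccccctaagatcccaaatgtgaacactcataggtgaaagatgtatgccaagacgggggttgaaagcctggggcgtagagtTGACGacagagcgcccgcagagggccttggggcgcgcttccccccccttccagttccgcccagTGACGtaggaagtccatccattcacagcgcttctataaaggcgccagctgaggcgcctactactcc
Fosb: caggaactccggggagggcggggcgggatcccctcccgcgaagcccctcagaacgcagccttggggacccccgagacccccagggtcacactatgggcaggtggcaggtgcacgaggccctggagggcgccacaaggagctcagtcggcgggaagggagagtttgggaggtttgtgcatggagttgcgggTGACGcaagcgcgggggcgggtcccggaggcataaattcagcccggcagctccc
Junb: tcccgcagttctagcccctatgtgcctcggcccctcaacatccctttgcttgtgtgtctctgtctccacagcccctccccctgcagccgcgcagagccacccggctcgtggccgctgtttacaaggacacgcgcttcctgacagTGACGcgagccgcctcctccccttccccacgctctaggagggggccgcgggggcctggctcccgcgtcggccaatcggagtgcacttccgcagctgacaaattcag
Jun: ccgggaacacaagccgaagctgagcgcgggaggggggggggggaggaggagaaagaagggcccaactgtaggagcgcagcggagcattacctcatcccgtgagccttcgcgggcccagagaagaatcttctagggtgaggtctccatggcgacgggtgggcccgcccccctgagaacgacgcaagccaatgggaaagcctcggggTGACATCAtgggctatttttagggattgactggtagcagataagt

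Fos, the founding member of its subfamily, was read at 15.8 to 38.6 CPM (median 24.3 CPM) in WT SH and at 12.6 to 27.1 CPM (median 16.7 CPM) in KD SH. In WT EE it was 15.2, 14.3, 27.6, 29.8 and 30.3 CPM in libraries 16, 17, 31B, 33A and 35A. In KD EE it was 29.0, 15.5, 19.2, 38.88 and 23.6 CPM in libraries 7, 8, 9, 32A and 36A. Both enriched groups spanned a wide range, and in WT EE libraries 16 and 17 lay apart from the 3 lettered ones, below every WT SH library. The group means were 25.9 ± 7.92 (SD, n = 6) in WT SH, 23.4 ± 8.01 (SD, n = 5) in WT EE, 18.5 ± 5.44 (SD, n = 6) in KD SH and 25.2 ± 9.16 CPM (SD, n = 5) in KD EE.

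Fosb, whose splice form ΔFosB is known for its long life in repeatedly stimulated neurons, was at 8.33 to 15.9 CPM (median 12.0 CPM) in WT SH and at 8.46 to 11.9 CPM (median 9.89 CPM) in KD SH. In WT EE it was 9.96, 7.47, 16.2, 18.8 and 24.99 CPM in libraries 16, 17, 31B, 33A and 35A. In KD EE it was 12.9, 13.6, 9.86, 16.9 and 23.0 CPM in libraries 7, 8, 9, 32A and 36A. The 5 lettered libraries held the highest Fosb values of all 22, each above every standard-housed library. The counts do not separate the splice forms of Fosb. Group means were 12.4 ± 2.77 (SD, n = 6) in WT SH, 15.5 ± 7.01 (SD, n = 5) in WT EE, 9.98 ± 1.21 (SD, n = 6) in KD SH and 15.2 ± 4.99 CPM (SD, n = 5) in KD EE.

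Fosl2 encodes Fra-2, a Fos protein without the strong activation domain of c-Fos. It was at 42.4 to 63.4 CPM (median 56.2 CPM) in WT SH and at 43.6 to 57.1 CPM (median 52.2 CPM) in KD SH. In WT EE it was 51.9, 49.2, 75.5, 72.3 and 99.0 CPM in libraries 16, 17, 31B, 33A and 35A, and in KD EE 63.2, 53.4, 58.7, 73.1 and 95.8 CPM in libraries 7, 8, 9, 32A and 36A. As with Fosb, the 5 lettered libraries lay above all others, and 35A and 36A were the highest of their groups for both genes. Library 35A also had the largest share of fragments outside single genes of the 22, at 18.6% beside up to 16.1% in the others. Group means were 54.5 ± 7.34 (SD, n = 6) in WT SH, 69.6 ± 20.2 (SD, n = 5) in WT EE, 51.4 ± 5.74 (SD, n = 6) in KD SH and 68.9 ± 16.7 CPM (SD, n = 5) in KD EE.

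Junb, the Jun protein induced together with Fos and a weaker activator than c-Jun, was at 45.7 to 68.6 CPM (median 61.5 CPM) in WT SH and at 36.7 to 50.5 CPM (median 43.1 CPM) in KD SH. In WT EE it was 42.3, 44.0, 59.0, 67.0 and 66.5 CPM in libraries 16, 17, 31B, 33A and 35A, and in KD EE 48.8, 40.8, 55.0, 72.3 and 66.3 CPM in libraries 7, 8, 9, 32A and 36A. In standard housing, 4 of 6 WT libraries lay above every KD library and 2 were within the KD range. Group means were 57.7 ± 9.26 (SD, n = 6) in WT SH, 55.8 ± 12.0 (SD, n = 5) in WT EE, 43.4 ± 5.35 (SD, n = 6) in KD SH and 56.6 ± 12.8 CPM (SD, n = 5) in KD EE.

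Jun, the partner in most AP-1 dimers and a target of the JNK kinases, varied least. It ranged from 67.1 to 119 CPM over the 22 libraries, 1.78-fold, and 21 of them lay between 90.7 and 119 CPM, the exception being library 5 of KD SH. Jund, the Jun gene with the steadiest expression across tissues, ranged from 13.3 to 25.2 CPM, 1.90-fold, with its lowest values in library 9 of KD EE and library 5 of KD SH. Fos ranged 3.08-fold, Fosb 3.34-fold, Fosl2 2.34-fold and Junb 1.97-fold. The lowest counts of the members were all in library 9, the shallowest, from 90 counts for Fosb to 879 for Jun.

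**Figure D1:**
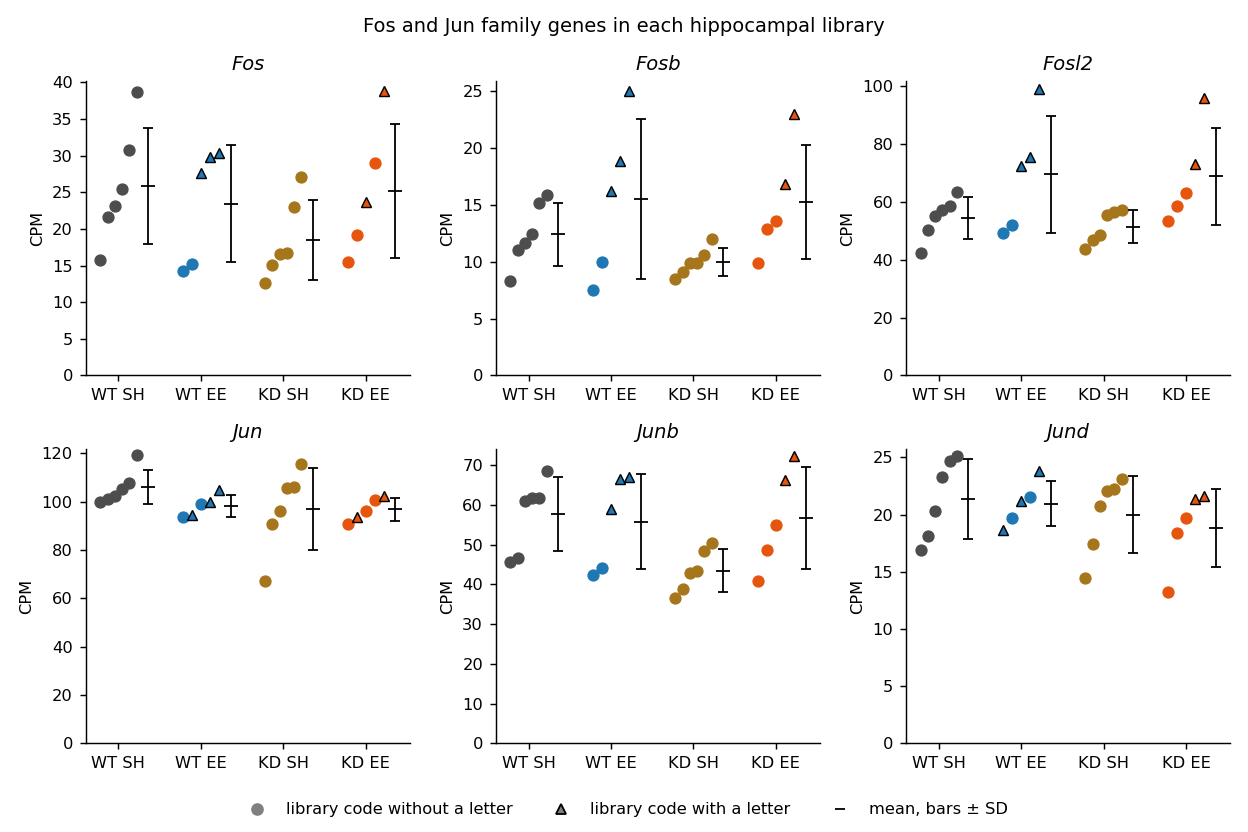
CPM of the 6 members in each of the 22 libraries by group, with the group mean and SD beside the points. Triangles are libraries whose code carries a letter. In Fosb and Fosl2 all 5 triangles lie above every standard-housed library, whereas in Jun and Jund they lie among the others.

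Enrichment was first compared with standard housing within WT mice. None of the 6 members was called. A call required that edgeR's quasi-likelihood test, with Benjamini-Hochberg adjustment over all genes, gave an adjusted p up to 0.05 together with a log2 fold change of at least 0.38 in either direction. In this comparison 0% of the 18482 genes tested were called. At an unadjusted p under 0.05 there was 1 member, Fosl2, beside 8.65% of all genes, and DESeq2 over the same libraries called 0 members and 23 genes. The log2 fold change of Fosl2 was 0.35 (SE 0.15, adjusted p = 0.496), with 3 of 5 WT EE libraries above every WT SH library, and that of Fosb was 0.33 (SE 0.23, adjusted p = 0.748). Fos was at -0.14 (SE 0.25, adjusted p = 0.927), Jun at -0.11, Junb at -0.05 and Jund at -0.03. Both positive values rested on the lettered libraries, and without library 35A alone they were 0.19 for Fosl2 and 0.0808 for Fosb. Without these, in a comparison that then had 2 WT EE libraries, the log2 fold change was -0.81 for Fos, -0.51 for Fosb, -0.42 for Junb and -0.11 for Fosl2, none of them among the 314 genes called in that fit. Over the 17 libraries that the study retained after removing 5 more for poor correlation within their groups, it was -0.49 for Fos, -0.23 for Junb, -0.11 for Fosb and 0.02 for Fosl2, none of them among the 664 genes called. The summed level of choroid plexus markers in libraries 16, 17 and 33A of WT EE (4268 CPM or more) lay above every WT SH library (up to 1941 CPM). Libraries 31B (73.8 CPM) and 35A (63.2 CPM) of WT EE lay within the WT SH range. This list was not tested between housings.

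Within KD mice, enriched libraries had higher mean levels of Fosb, Fosl2, Fos and Junb, but again 0 of 6 members and 0% of all genes were called. At an unadjusted p under 0.05 there were 3 members, Fosb, Fosl2 and Junb, beside 9.63% of all genes, and DESeq2 called 0 members and 2 genes. Log2 fold changes were 0.65 for Fosb (SE 0.23, adjusted p = 0.467), 0.44 for Fosl2 (SE 0.15, adjusted p = 0.463) and 0.40 for Junb (SE 0.14, adjusted p = 0.467). Without library 36A alone, Fosl2 was at 0.29. For Fosb and for Fosl2, 4 of 5 KD EE libraries lay above every KD SH library, and for Junb 3 of 5. Fos was at 0.48 (SE 0.25, adjusted p = 0.543), with a 95% confidence interval from -0.04 to 0.99, and at 0.25 without library 32A. Jun (0.01) and Jund (-0.06) were near 0. The interval of Jun, from -0.17 to 0.19, left out the estimates of Fosb and Fosl2. It overlapped their intervals, from 0.17 to 1.13 and from 0.12 to 0.75, and the members were not tested against each other. Over the 17 libraries of the study, DESeq2 called Fosl2 (log2 fold change 0.47, adjusted p = 0.0451, where the other alternatives gave up to 0.825) and no other member, among 404 genes called in that fit. Without the lettered libraries the log2 fold changes were 0.32 for Fosb, 0.20 for Fosl2 and 0.16 for Junb, and no gene was called. In choroid plexus markers all 5 KD EE libraries (218.5 CPM or more) lay above 5 of 6 KD SH libraries (up to 188.8 CPM), the exception being library 2 at 3045 CPM.

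The genotypes were then compared within each housing. In standard housing, all 6 members had a positive log2 fold change of WT over KD, with a median of 0.23 beside -0.01 over all genes. None was called, as were 0% of all genes. At an unadjusted p under 0.05 there were 2 members, Junb and Fos, beside 5.76% of all genes, and DESeq2 called 0 members and 2 genes. Junb was at 0.41 (SE 0.14, adjusted p = 0.811) and Fos at 0.50 (SE 0.24, adjusted p = 0.811). Junb had the 86th lowest p of the 18482 genes. Fosb was at 0.33, Jun at 0.13, Jund at 0.09 and Fosl2 at 0.09, and without library 5 Jun was at 0.0486 and Jund at 0.0234, and without library 11 Fosl2 was at 0.0376. In the enriched environment, 0 of 6 members and 0% of all genes were called, 0 members had an unadjusted p under 0.05 beside 2.61% of all genes, and DESeq2 called 0 members and 0 genes. The members' log2 fold changes of WT over KD were between -0.12 (Fos) and 0.13 (Jund), and the interval of Fos reached from -0.65 to 0.42. Without the lettered libraries Fos was at -0.52, Fosb (0.01 before) at -0.50, Fosl2 (0.00 before) at -0.22 and Junb at -0.16, and over the 17 libraries of the study Fos was at -0.43, Fosb at -0.45, Fosl2 at -0.31 and Junb at -0.16, none of them called.

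Whether enrichment changed the members differently in WT and KD mice was tested as the interaction of genotype and housing. For this 0 of 6 members and 0% of all genes were called, and DESeq2 called 0 members and 0 genes. At an unadjusted p under 0.05 there was 1 member, Junb, beside 2.04% of all genes. The difference of the log2 fold changes, WT minus KD, was -0.44 for Junb (SE 0.20, adjusted p = 1) and -0.62 for Fos (SE 0.35, adjusted p = 1). The other members lay between -0.32 (Fosb) and 0.03 (Jund). Over the 17 libraries of the study Fos was at -1.01, Fosb at -0.87, Junb at -0.63 and Fosl2 at -0.44, and without the lettered libraries these were -1.03, -0.83, -0.57 and -0.31, none of them called. The comparisons share groups, so that low values in KD SH enter both the housing difference in KD mice and the genotype difference in standard housing. Since these are whole hippocampi, fewer cells that express a gene and less RNA in each cell cannot be told apart.

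**Figure D2:**
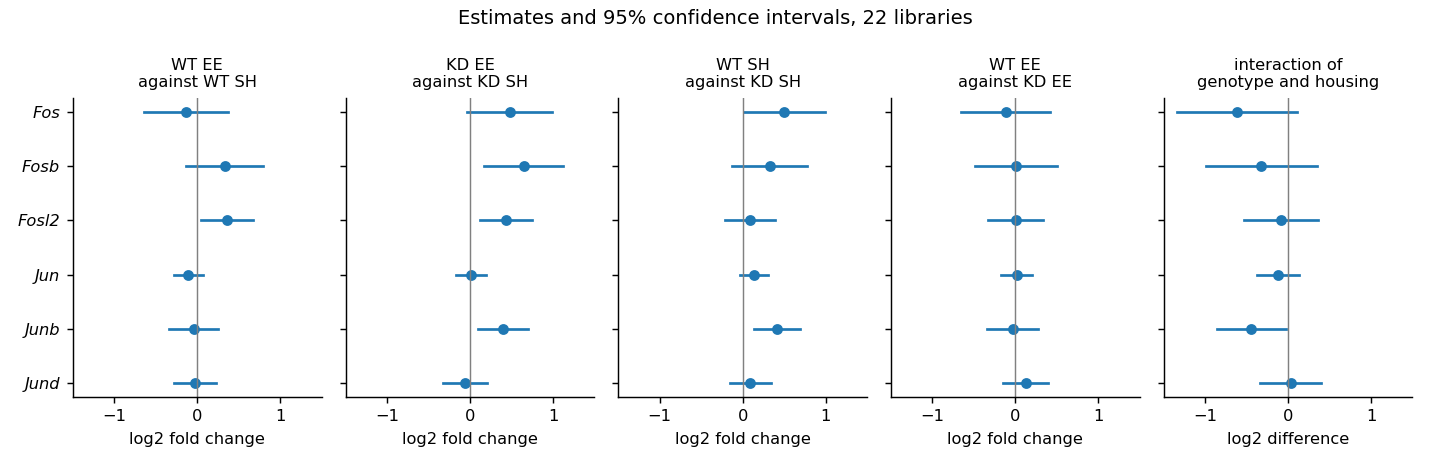
Log2 fold changes of the 6 members in the 4 comparisons of groups and the difference of log2 fold changes in the interaction, with 95% confidence intervals, from edgeR over 22 libraries. Intervals that lie apart from 0 are those of Fosl2 in WT EE against WT SH, of Fosb, Fosl2 and Junb in KD EE against KD SH, of Fos and Junb in WT SH against KD SH and of Junb in the interaction, but no member passed the adjusted threshold.

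After these values had been seen, the enriched libraries with a letter in their code were compared with those without, as a term beside the 4 group means. The comparison was chosen because lettered libraries held the highest Fosb and Fosl2 values, so its p-values for the members, and for genes correlated with them, describe that split and are not independent evidence of it. Of the 6 members 3 were called, Fosb, Fosl2 and Junb, all higher in lettered libraries. Of all 18482 genes, 0.427% were called in either direction and 0.335% were called as higher. The log2 difference was 0.95 for Fosb (SE 0.17, adjusted p = 0.0155), 0.62 for Fosl2 (SE 0.11, adjusted p = 0.0155) and 0.55 for Junb (SE 0.11, adjusted p = 0.0219). In both genotypes the lettered libraries lay above the unlettered ones without overlap for these 3 genes. So they did for Fos in WT EE alone and for Jund in KD EE alone. Each side held only 2 or 3 libraries, and the share of all genes without overlap was not computed. Mean Fosb was 20.01 CPM in 3 lettered and 8.72 CPM in 2 unlettered WT EE libraries, and 19.9 CPM in 2 lettered and 12.1 CPM in 3 unlettered KD EE libraries. Fos was at 0.78 (SE 0.23, adjusted p = 0.0905) and overlapped in KD EE, whereas Jun was at 0.04 (adjusted p = 0.887) and Jund at 0.17 (adjusted p = 0.565). The calls depended on which libraries were used. No member was called when library 17 or library 36A was left out, and 1 (Junb), among 8 genes, over the 17 libraries of the study, which hold 3 lettered ones. The log2 differences changed less than the calls, with lowest values of 0.82 for Fosb, 0.54 for Fosl2 and 0.50 for Junb with 1 library left out, and 0.81, 0.53 and 0.64 over the 17. As all lettered libraries came from enriched mice, a difference tied to the letter and one between enriched animals cannot be told apart.

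Of the other activity-induced genes, 7 of 30 were called higher in the lettered libraries and 28 of 30 were positive, a median log2 difference of 0.36 beside -0.01 over all genes. They were Egr2 at 1.66 (adjusted p = 0.0112), Sik1 at 0.98, Dusp5 at 0.75, Klf2 at 0.66, Egr4 at 0.65, Egr1 at 0.60 and Per1 at 0.47. Of the 8 glucocorticoid-responsive genes, 4 were called higher, Sgk1 at 0.85, Tsc22d3 at 0.58, Errfi1 at 0.50 and Per1, which is on both lists, and the median was 0.54. Of 8 heat shock and chaperone genes 0 were called (7 positive, median 0.12). The calls on these lists depended on single libraries like those of the members, with 0 genes called at all without library 17 and 8 over the 17 libraries of the study, and Egr1 was not called over the 10 enriched libraries alone (adjusted p = 0.0817). The 5 blood genes were lower in lettered libraries, 5 of 5 with a median of -0.72 and 0 called. Of the other marker lists, over both genotypes choroid plexus was higher (13 of 15, median 0.27), with 0 called. Meninges (1 of 8 higher, median -0.28) and ependyma (1 of 7 higher, median -0.26) were lower, with 0 called. The genotypes differed. In KD EE, summed choroid plexus, meninges and ependyma markers were higher in each lettered library than in every unlettered one. For meninges this was 802.9 CPM or more against up to 689.2 CPM. In WT EE, meninges was lower in every lettered library (up to 655.4 CPM against 1123 CPM or more). There, choroid plexus and ependyma were higher in 33A than in both unlettered libraries and lower in the other lettered ones. At an unadjusted p under 0.05 were 19 of 30 activity-induced, 7 of 8 glucocorticoid-responsive and 2 of 8 heat shock genes, beside 2894 of all 18482 genes. Of the marker lists, 4 of 5 blood, 4 of 8 astrocyte, 3 of 8 dentate granule cell and 3 of 8 endothelial markers were, and at most 1 in each other list. Astrocyte (5 of 8 higher), dentate granule cell (6 of 8) and endothelial markers (6 of 8) did not all share a direction. The part of these genes in the result was not tested.

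The spread of the members between libraries of one group was wide for their level. The within-group SD of log2 CPM was 0.47 for Fos, 0.44 for Fosb, 0.29 for Fosl2 and 0.27 for Junb, beside 0.24 for Jund and 0.16 for Jun. Among genes within 0.5 log2 units of the same mean level, Fos stood at the 99.2 percentile of 2485 genes, Fosb at 98.6, Fosl2 at 98.6, Junb at 97.5, Jund at 92.8 and Jun at 83.6. Genes at the level of Fos had a median SD of 0.14. All 6 members thus varied more than most genes of their level, Fos, Fosb, Fosl2 and Junb most and Jun least, and the spread of the enriched groups includes the split by letter.

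To see whether the members varied together, group means were subtracted from log2 CPM and the 15 pairs were correlated over the 22 libraries, with p-values from 100000 permutations within groups and Benjamini-Hochberg adjustment over the pairs. By Pearson's r, 5 pairs passed an adjusted p of 0.05, all positive and all among Fos, Fosb, Fosl2 and Junb. Fos and Fosb had r = 0.748 (permutation p = 0.00041, adjusted p = 0.00307) and Spearman's rho = 0.820 (permutation p = 0.00013). Fosl2 and Junb had r = 0.776 (permutation p = 0.00041, adjusted p = 0.00307) and rho = 0.748 (permutation p = 0.00096). Fosb and Fosl2 had r = 0.784 (permutation p = 0.00136, adjusted p = 0.0068), but their rho of 0.549 (permutation p = 0.0309) did not pass the adjustment, at 0.0797. These pairs had the highest r of the family, but by rho the last was below the 2 pairs that follow, and it owed part of its r to libraries 35A and 36A, the highest in both genes. Fos and Junb had r = 0.655 (permutation p = 0.00484, adjusted p = 0.0181) with rho = 0.678 (permutation p = 0.00334). Fosb and Junb had r = 0.653 (permutation p = 0.00873, adjusted p = 0.0262) with rho = 0.670 (permutation p = 0.00664). The remaining pair of these genes, Fos and Fosl2, did not pass, with r = 0.485 (permutation p = 0.0532, adjusted p = 0.114) and rho = 0.418 (permutation p = 0.0915). Without the 2 libraries farthest from the median of the first gene, r was 0.782 for Fos and Fosb, 0.775 for Fosl2 and Junb, 0.62 for Fosb and Fosl2, 0.566 for Fos and Junb and 0.580 for Fosb and Junb.

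Within housing conditions the pairs differed. In the 12 standard-housed libraries r was 0.914 for Fos and Fosb and 0.626 for Fosl2 and Junb, but 0.257 for Fosb and Fosl2, 0.361 for Fos and Junb and 0.385 for Fosb and Junb. In the 10 enriched libraries, which differ in the letter, the same pairs had r of 0.713, 0.845, 0.931, 0.852 and 0.762. With the means of lettered and unlettered libraries subtracted within groups, r was 0.536 for Fos and Fosb, 0.471 for Fosl2 and Junb, 0.425 for Fosb and Fosl2, 0.392 for Fos and Junb and 0.156 for Fosb and Junb, and no pair passed the adjustment. The standard-housed groups differed in sign, with r of 0.660 in WT SH and -0.715 in KD SH for Fosb and Fosl2, and of 0.693 and -0.418 for Fosb and Junb, over 6 libraries each. Fos and Fosb had positive r in both (0.973 and 0.897). Fos and Fosl2 had r of 0.659 in WT SH and -0.830 in KD SH. Over both standard-housed groups their r was 0.027, over the enriched libraries 0.729, and centred by group and letter 0.011. Over the 17 libraries of the study the 5 pairs kept a positive r, and no pair passed the adjustment.

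No pair with Jun or Jund passed the adjustment. Jun had r = -0.204 with Fos (permutation p = 0.367, rho = -0.008, permutation p = 0.972) and r = -0.123 with Fosb (permutation p = 0.369, rho = -0.094, permutation p = 0.659). The negative sign came from library 5, low in Jun and high in Fos, without which r was 0.114 and 0.007, and in the 10 enriched libraries Fos and Jun had r = 0.633. Fosl2 and Jun had r = 0.255 (permutation p = 0.111) and rho = 0.461 (permutation p = 0.0319, adjusted p = 0.0797), and Jun and Junb r = 0.311 (permutation p = 0.0704) and rho = 0.379 (permutation p = 0.0735). Jun and Jund had r = 0.507 (permutation p = 0.0318, adjusted p = 0.0795) and rho = 0.385 (permutation p = 0.107), and r was 0.114 without libraries 5 and 15, so that the relation rested on those libraries.

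**Figure D3:**
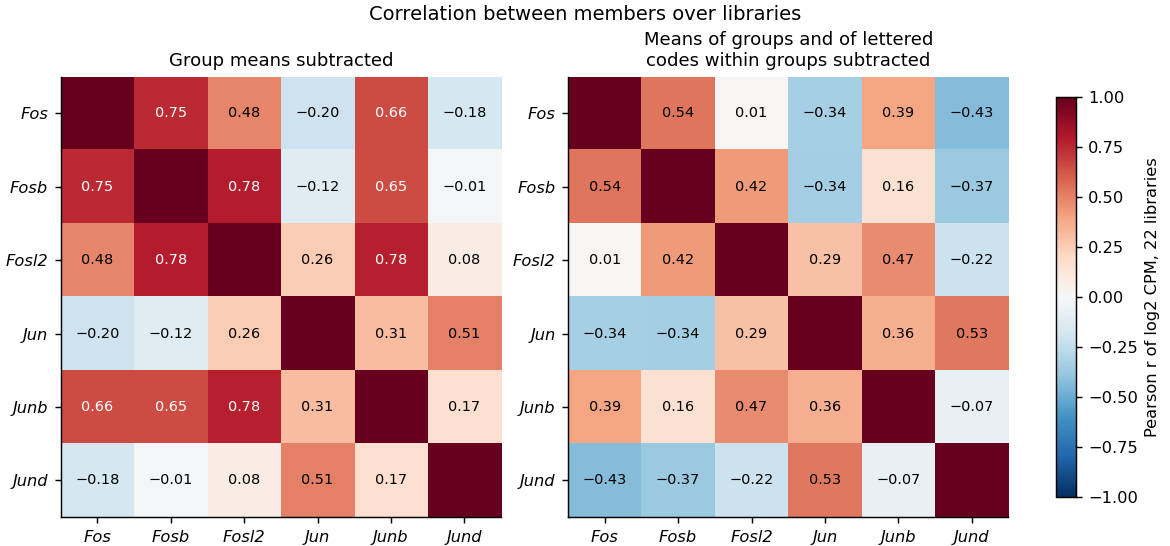
Pearson correlation of log2 CPM between the 6 members over 22 libraries, after subtracting group means and after also subtracting the means of lettered and unlettered libraries within groups. Fos, Fosb, Fosl2 and Junb form a positive block over the 22 libraries, with r from 0.485 to 0.784. Once the letter is taken out, r of their pairs is lower, from 0.011 (Fos and Fosl2) to 0.536 (Fos and Fosb).

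**Figure D4:**
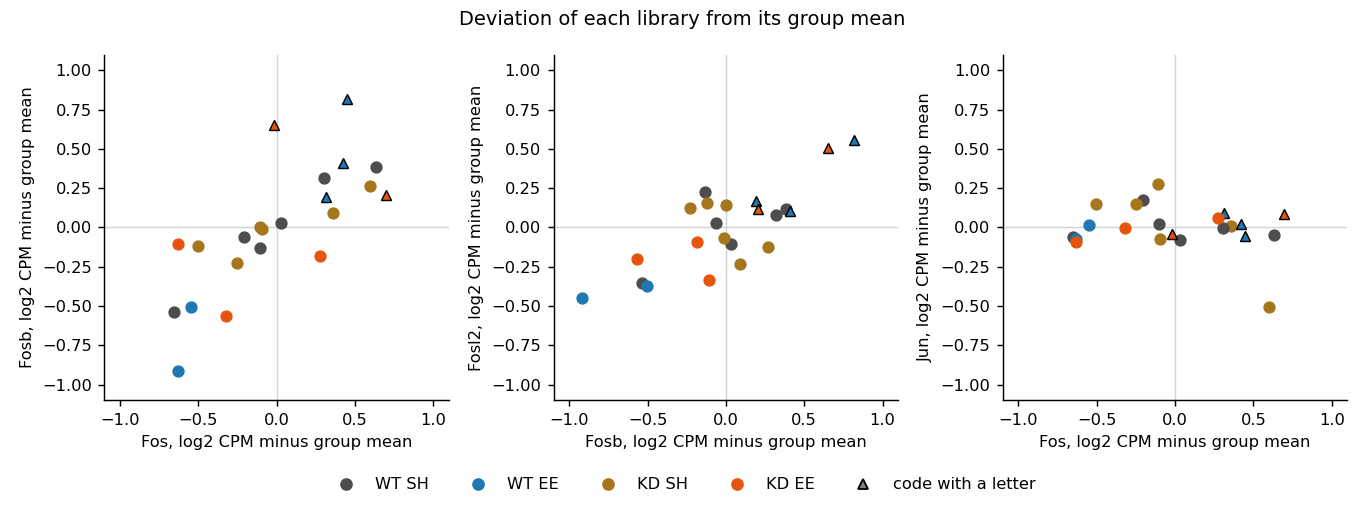
Log2 CPM minus the group mean in each of the 22 libraries, for Fos and Fosb, Fosb and Fosl2, and Fos and Jun. Lettered libraries (triangles) lie in the upper right for Fosb and Fosl2, and library 5 of KD SH is the single low point for Jun.

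The genes most like each member were sought among the 15020 tested genes with a mean of 1 CPM or more, by r of group-centred log2 CPM over the 22 libraries, as a description without a test. For Fos they were Arc (r = 0.915), Egr2 (0.898), Zfp655 (0.873), 1810013L24Rik (0.872) and Mcl1 (0.867). Arc and Egr2 are themselves immediate early genes. For Fosb they were Tmed8 (0.929), Ppp1r15b (0.910), Tex10 (0.908), Zdbf2 (0.908) and Egr2 (0.905), and for Fosl2 Zfp251 (0.957), Klf9 (0.932), 2900026A02Rik (0.930), Zscan20 (0.917) and Prickle2 (0.915). For Junb they were Egr4 (0.890), Zfp407 (0.852), Etv3 (0.839), Tet3 (0.832) and Abl2. Klf9 is a known glucocorticoid-responsive gene. The neighbours of Jun were Ehd1 (0.918), Thra (0.902), C1ql2 (0.898), Ldoc1l (0.890) and Dnajc16 (0.875), but their Spearman's rho was lower, from 0.595 to 0.782. C1ql2 is a marker of dentate granule cells. Those of Jund were Bri3 (0.832), Aes (0.811), Fzd8 (0.810), Fscn1 (0.798) and Atn1 (0.798).

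Lists of related genes were read the same way. Of the 30 other activity-induced genes, 17 had r over 0.5 with Fos, beside 10% of all 15020 genes. The median r with Fos was 0.579, beside -0.03 over all genes. For the same list it was 0.621 with Fosl2 but -0.02 with Jun and 0.02 with Jund. In KD EE against KD SH, 27 of the 30 were positive with a median log2 fold change of 0.28 beside 0.00 over all genes, and 0 were called. The lowest p were those of Dusp5 (0.66, adjusted p = 0.453), Klf2 (0.56, adjusted p = 0.457) and Sik1 (0.74, adjusted p = 0.457). In WT EE against WT SH the median of the list was 0.07, with Nptx2 at 0.49, Npas4 at -0.30 and Bdnf at 0.21 lowest in p and 0 called. In WT SH against KD SH 25 of 30 were positive with a median of 0.16 and 0 called, led by Egr4 (0.37), Nr4a3 (0.23) and Npas4 (0.26), each with an adjusted p of 0.811. In WT EE against KD EE the median was 0.00, and Trib1 (-0.31), Arc (-0.39) and Dusp6 (-0.17) had the lowest p. In the interaction the median was -0.22, with Ier2 at -0.49, Arc at -0.57 and Ier3 at 0.30. The list thus lay on the side of Fos and Junb in each comparison with standard-housed KD mice, but no gene of it was called. These comparisons share the KD SH libraries, so their sides are not independent.

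Among 17 other AP-1 and partner bZIP factors 15 were tested and 0 called in any of the 5 comparisons. Batf3, a partner of Jun proteins known from dendritic cells, had the lowest p in WT EE against WT SH (log2 fold change 1.14, SE 0.23, adjusted p = 0.203) and in the interaction (1.04, SE 0.33, adjusted p = 1). Atf3 was at 0.67 and Mafk at 0.23 in WT EE against WT SH, and Mafk, Maf and Bach1 at 0.19, 0.14 and 0.15 in KD EE against KD SH. Batf3 and Atf3 both had a mean under 1 CPM, so their fold changes rest on few counts. Of the 16 transcription factors upstream of Fos and Jun 0 were called in any comparison, with Mef2a (-0.20), Stat3 (0.10) and Crtc2 (0.10) lowest in p under enrichment in WT mice and Stat3 (0.14), Mef2a (-0.13) and Srf (0.14) in KD mice. Of the 17 kinases upstream of AP-1 0 were called, and Map2k4 (-0.15), Mapk3 (-0.19) and Rps6ka5 (-0.22) had the lowest p in WT EE against WT SH. In KD EE against KD SH, Map2k4 was at -0.11 and Rps6ka1 at -0.14. Over the 22 libraries, these named differences in upstream factors and kinases were smaller than those of Fosb or Fosl2 in the same housing comparison. Without library 35A, Fosb and Fosl2 in WT mice were at 0.0808 and 0.19. Over the 17 libraries of the study they were at -0.11 and 0.02.

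Of 12 genes with AP-1 sites known from other work, 11 were tested and 0 called. Vgf, a neuropeptide precursor, had the lowest p in both housing comparisons, at 0.23 in WT mice (SE 0.07, adjusted p = 0.399) and at 0.36 in KD mice (SE 0.07, adjusted p = 0.150). Sst (-0.16) and Timp1 (0.43, with a mean under 1 CPM) came next in WT mice, and Pdyn (-0.18) and Mmp9 (-0.27) in KD mice. Over the 10 of these genes with a mean of 1 CPM or more, r with Fos went both ways, from -0.508 to 0.394, with a median of -0.11.

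Heat shock and glucocorticoid-responsive genes were read because handling and stress can change both them and Fos. All 8 heat shock genes were positive under enrichment in WT mice (median 0.37) and in KD mice (median 0.29), with 6 of 8 at an unadjusted p under 0.05 in each, beside 8.65% and 9.63% of all genes, and 0 called. Hspb1 (0.90), Hsph1 (0.30) and Hspa5 (0.52) led in WT mice and Hspa1a (0.48), Hspa1b (0.63) and Dnajb1 (0.26) in KD mice. All 8 glucocorticoid-responsive genes were positive as well, with medians of 0.28 and 0.33, 3 and 5 of 8 at an unadjusted p under 0.05 and 0 called (medians over all genes 0.01 and 0.00), led by Sgk1 (0.68), Cdkn1a (0.64) and Plin4 (0.92) in WT mice and Plin4 (1.21), Cdkn1a (0.72) and Per1 (0.34) in KD mice. The median r with Fos was -0.14 for the heat shock list and 0.282 for the glucocorticoid list, and with Fosl2 0.440 and 0.676. These lists were not tested against the members, and the part of stress or handling in these values was not tested.

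Markers of cell types and of neighbouring tissue were read in every library. Markers of dentate granule cells (summed level 425.7 to 674.6 CPM) and of CA1 pyramidal cells (752.7 to 991.6 CPM) were abundant throughout, which places the tissue in the hippocampus. The 15 choroid plexus genes, by contrast, ranged from 41.3 CPM in library 5 to 5906 CPM in library 36A, with Ttr the most abundant and 0 genes absent from every library. The 4 highest libraries were all enriched, and both lettered (33A and 36A) and unlettered (16 and 17). Of 84 correlations between the 6 members and 14 marker lists 0 passed the adjustment. The lowest p were those of Jun with dentate granule cells (r = 0.769, permutation p = 0.00298, adjusted p = 0.0938, rho = 0.579, permutation p = 0.0108), Fosl2 with oligodendrocytes (r = -0.617, permutation p = 0.00312, adjusted p = 0.0938, rho = -0.574, permutation p = 0.0102) and Jund with CA3 and CA2 pyramidal cells (r = 0.554, permutation p = 0.00335, adjusted p = 0.0938, rho = 0.575, permutation p = 0.00535). Without the 2 farthest libraries these r were 0.450, -0.337 and 0.544. Fosl2 had r = 0.530 with dentate granule cells (permutation p = 0.00453, adjusted p = 0.0951, rho = 0.551, permutation p = 0.0159) and 0.643 without the 2 farthest libraries. Jun also had r = 0.65 with CA1 pyramidal cells (permutation p = 0.00623, adjusted p = 0.105, rho = 0.653, permutation p = 0.0059). With choroid plexus, Jund had r = 0.486 (permutation p = 0.018, adjusted p = 0.166, rho = 0.450, permutation p = 0.0329) and Fos had r = -0.377 (permutation p = 0.126, adjusted p = 0.409, rho = -0.344, permutation p = 0.163). There Fosb had r = -0.287, Fosl2 -0.295, Junb -0.230 and Jun -0.045. Without libraries 33A and 36A, r with choroid plexus was -0.493 for Fos, -0.540 for Fosb, -0.522 for Fosl2 and -0.432 for Junb. It was then 0.424 for Jund and -0.042 for Jun. With blood, r was -0.545 for Fos, -0.602 for Fosb, -0.566 for Fosl2 and -0.546 for Junb. Without libraries 16 and 17 these r were -0.245, -0.078, -0.160 and -0.263. With the choroid plexus score as a covariate, 0 members were called in the 5 comparisons and the same number, 3, between lettered and unlettered libraries. Library 5, with the lowest Jun, also had the lowest sums of the dentate, CA1 and CA3 markers, and library 12 stood out by thalamic markers (490.6 CPM, beside a median of 166.0 CPM) and library 14 by striatal ones (176.1 CPM, beside a median of 82.8 CPM). The part of dissection in the members' values was not tested.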

How the data were processed

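Per the labels and the study's methods, the authors made TruSeq polyA libraries, aligned the reads to GRCm38 with STAR 2.5 and counted fragments per gene symbol with HTSeq; the deposited values are raw counts without normalization. Between 14.0% and 18.6% of fragments in the 22 libraries fell outside single genes and were not used. A table of the authors' scaled values was not used here. The members, lists and comparisons were chosen with earlier results of these data known. Named genes were the members, the 5 genes most like each, up to 3 genes of lowest p in each list and comparison, and any list gene called.

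CPM were scaled by TMM, and log2 CPM used a prior count of 2. Genes were filtered with filterByExpr and tested with 1 quasi-likelihood model of 4 group means in edgeR 4.0.16 (R 4.3.3), with intervals at 95%. Correlations and figures used Python 3.11.15 and matplotlib 3.10.9. Alternatives were the 17 libraries of the study, all 24, no lettered libraries, DESeq2 1.42.0, its size factors, other filters, the compared groups alone, a choroid plexus covariate, the adjusted p alone and each library left out. The comparison by letter, and correlations centred by letter, were added after seeing the data. The tests were tried on simulated data. No pair of libraries was identical. Reads carry no molecular identifiers, so floors and intervals of counts cover counting error only.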

Additional observations from a re-analysis of the deposited data

Results flagged for a closer look

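Library 33B, a WT EE library with a letter in its code, failed quality control, with 54.1% of its fragments outside single genes, and enters no comparison. Scaled with all 24 libraries, it held 19.7 CPM of Fosb (counting interval 17.5 to 22.2 CPM) and 69.8 CPM of Fosl2 (65.4 to 74.3 CPM). Both values, from a library outside the comparisons, lay above the highest standard-housed library, at 15.96 CPM for Fosb and 63.7 CPM for Fosl2. Library 33B shares its number with 33A of the same group, which is within the comparisons. Whether they came from the same animal is not given in the sources used here. In 33B, Fos (27.7 CPM), Junb (57.8 CPM), Jun (93.3 CPM) and Jund (19.0 CPM) were below the highest standard-housed values. The cause was not tested. Library 34B held 16442 counts on genes and between 0 and 2 counts for each member, too few to give a level. Of the 24 sets of values of 1 member in 1 group, 0 held a library that stood apart by Dixon's test at 95%, where chance gives about 1 in 20.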

How the results depend on the processing

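No paired analysis was possible because the library codes are unique and the groups share no numbers. Of 984 fold changes of a member under an alternative in the 5 comparisons, 913 kept their direction and side of the threshold, 70 reversed and 1 became a call, and all those that reversed were not called. Of 405 correlations of a pair, 361 were kept, 21 lost and 5 gained significance and 18 reversed. The cause of these changes was not tested. Members were called in 0 of the 5 comparisons under each alternative but DESeq2 over the 17 libraries of the study, with 1 (Fosl2) in KD EE against KD SH.

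Genes called in WT EE against WT SH numbered 664 over the 17 libraries, 1 over 24, 314 without the lettered libraries, 23 with DESeq2, 729 with DESeq2 over the 17, 7 without a filter and 2 with a term for the letter. In KD EE against KD SH they were 325 over the 17, 2 with DESeq2 and 404 with DESeq2 over the 17, in WT SH against KD SH 2 and 3 with DESeq2 over the 22 and the 17, in WT EE against KD EE 1 over the 17 and 18 with DESeq2 over the 17, and for the interaction 2 with DESeq2 over the 17. Between lettered and unlettered libraries 34 genes were called over the 10 enriched libraries, and 8 genes and 1 member over the 17. Of 15 pairs, 0 passed over the 17 libraries, 8 over 24, 1 without the lettered libraries and 0 centred by letter.

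Log2 fold changes that reversed over the 17 libraries were, in WT EE against WT SH, Fosb -0.11 and Jund 0.0736, in KD EE against KD SH Jun -0.0139 and Jund 0.0363, and in WT EE against KD EE Fosb -0.45 and Fosl2 -0.31. DESeq2 over the 17 gave -0.13, 0.0679, -0.0107, 0.0381, -0.46 and -0.31 for the same, and Jun -0.00103 in WT EE against KD EE. Without the lettered libraries, Fosb was -0.51 and Fosl2 -0.11 in WT EE against WT SH, and Fosb -0.50, Fosl2 -0.22 and Jun -0.00207 in WT EE against KD EE. With a term for the letter, added after seeing the data, Fosb was -0.35 and Fosl2 -0.0583 in WT EE against WT SH, Jun -0.00933 in KD EE against KD SH, and Fosb -0.23 and Fosl2 -0.13 in WT EE against KD EE. With the choroid plexus covariate, Fos was 0.0165 and Junb 0.00435 in WT EE against WT SH, and Fosb -0.0928 and Fosl2 -0.0484 in WT EE against KD EE. Without a filter, Jun was -0.00432 in KD EE against KD SH.

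Correlations that reversed were, over 24 libraries, 0.216 for Fos and Jun, 0.235 for Fosb and Jun, -0.268 for Fosl2 and Jund and -0.103 for Junb and Jund, without the lettered libraries -0.109 and -0.072 for the latter pairs, and centred by letter -0.217 and -0.072.

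With each library left out in turn, 0 to 1 genes were called in KD EE against KD SH and in WT EE against KD EE, 0 to 123 genes and 0 to 4 members between lettered and unlettered libraries, and 3 to 7 pairs passed. In WT EE against WT SH, Fosb ranged from 0.0808 to 0.50, Fosl2 from 0.19 to 0.45, Fos from -0.26 to 0.00438, Junb from -0.12 to 0.0401 and Jund from -0.0886 to 0.0221. In KD EE against KD SH, Fos ranged from 0.25 to 0.62, Fosl2 from 0.29 to 0.52, Jun from -0.0746 to 0.0656 and Jund from -0.13 to 0.0285. In WT SH against KD SH, Fosl2 ranged from 0.0376 to 0.15, Jun from 0.0486 to 0.19 and Jund from 0.0234 to 0.16. In WT EE against KD EE the ranges were -0.26 to 0.11 for Fos, -0.24 to 0.20 for Fosb and -0.16 to 0.15 for Fosl2. There Jun ranged from -0.0115 to 0.0397, Junb from -0.14 to 0.0794 and Jund from 0.0365 to 0.18. In the interaction the ranges were -0.76 to -0.39 for Fos, -0.57 to -0.13 for Fosb, -0.17 to -0.034 for Jun, -0.25 to 0.0671 for Fosl2 and -0.0586 to 0.10 for Jund. Correlations ranged from -0.282 to 0.114 for Fos and Jun, -0.225 to 0.007 for Fosb and Jun, -0.246 to 0.084 for Fosb and Jund and -0.031 to 0.20 for Fosl2 and Jund. Depth limited Fosb most, with 90 counts in library 9.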
